A study of Mus musculus with 8 samples.

Results

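The genes described here are 9 that a mature pancreatic beta cell uses to sense glucose, to respond to gut hormones and to fill its insulin granules: Slc2a2, G6pc2, Abcc8, Kcnj11, Trpm5, Glp1r, Gipr, Slc30a8 and Ucn3. They were taken by name, each through the probe sets that name it alone. These 9 genes have 13 such probe sets, and each gene was read from its brightest probe set on average. They are 9 of 18193 genes with a probe set of their own, and all 9 were among the 13369 genes whose mean over the arrays was high enough for testing.

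Islet RNA came from male C57Bl/6 mice, 13 weeks old at the end of the treatment, on 8 Affymetrix oligonucleotide arrays, 2 for each of 4 groups. The groups were Irs2 knockout mice (Irs2-/-) given sodium tungstate in distilled drinking water for 21 days, Irs2-/- mice on distilled water, wild-type mice given the same tungstate water, and wild-type mice on distilled water. Irs2 encodes an adaptor protein that carries signals from insulin and IGF receptors, and sodium tungstate is a salt that has been tried by mouth against diabetes. The tungstate concentration reads 2 mg/ml in the design text and 2 mg/dl in the sample labels, so the dose is not settled here, and neither the extent of the deletion nor the number of mice behind a sample is stated. The samples are described as independent. P-values therefore measure the spread between these samples.

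Beta cells take up glucose through a transporter, burn it, and close a potassium channel as ATP rises. The membrane then depolarises, calcium enters, and insulin granules fuse with the surface. Incretin hormones released by the gut after a meal amplify this release through receptors that raise cAMP. Genes for these steps are switched on as beta cells mature, and several are known to decline in diabetic islets.

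Values are log2 expression, so a difference of 1 is a 2-fold change, and differences are given ± the standard error (SE) of a limma model that pools the spread over the 4 groups. A gene was called changed at an adjusted p under 0.05 over all 13369 genes. The median SE of a difference between groups was 0.14. With 2 arrays per group, the number of arrays limits the precision.

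Before the results, the tissue and the genotype were checked. Irs2 read 4.78 and 4.86 in treated and 4.54 and 4.89 in untreated Irs2-/- islets, against 7.89 and 7.61 in treated and 7.91 and 7.73 in untreated wild-type islets, so each array followed its genotype label. The islet label fitted the hormone genes: Ins2 lay between 14.72 and 14.75 and Gcg between 14.15 and 14.39 on all arrays. The mean of 10 pan-endocrine markers, such as the chromogranins, was 12.51 to 12.61 on the 8 arrays. Markers of other cells were present and varied, with acinar markers (13 genes, mean level 9.15 to 12.26), macrophage markers (12 genes, 6.88 to 8.47) and lymphocyte markers (9 genes, 5.52 to 7.95).

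**Figure D1:**
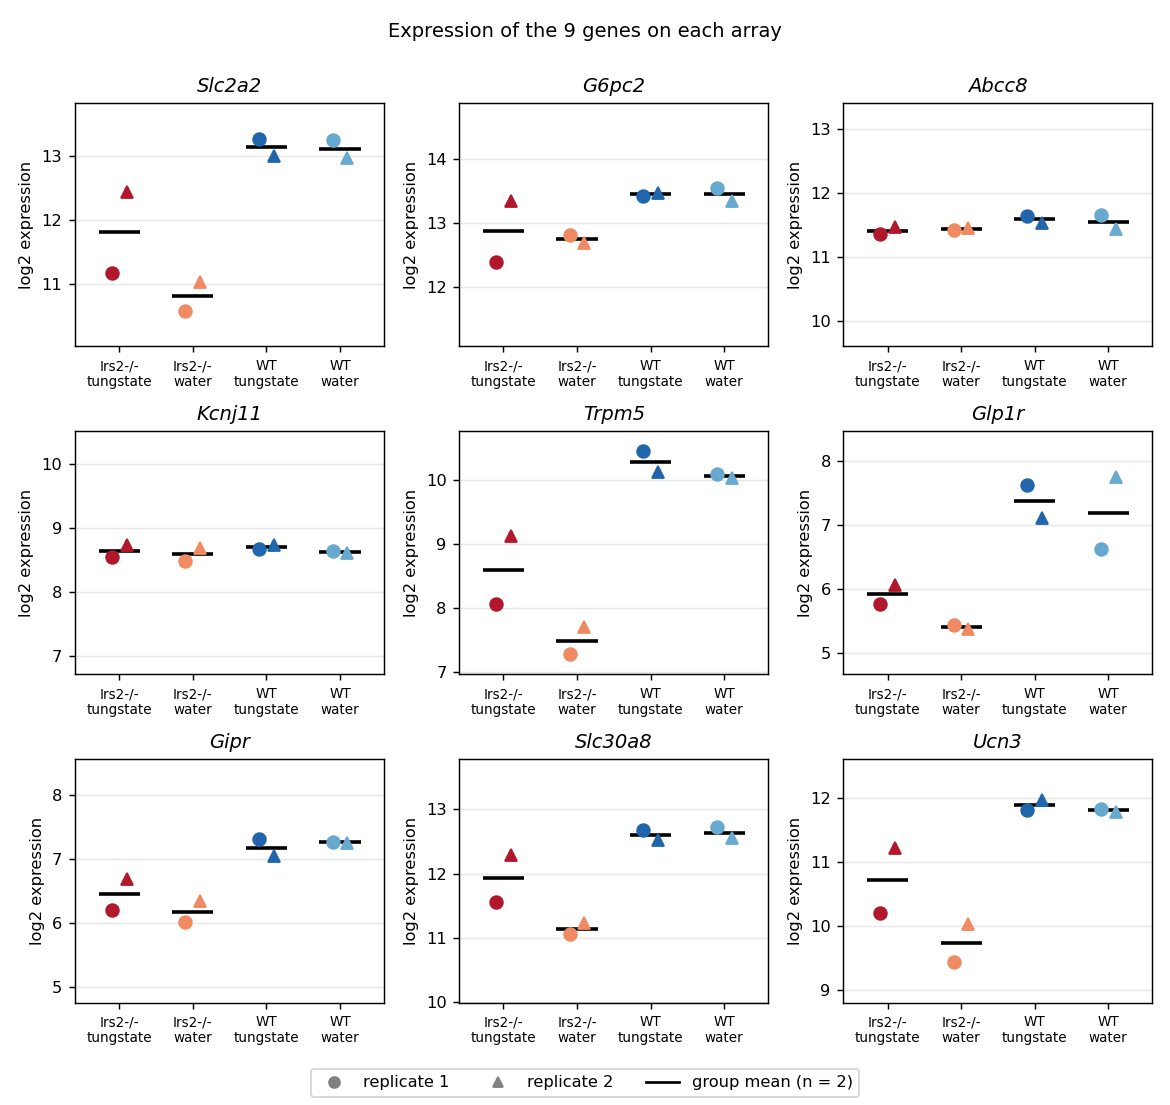
Log2 expression of the 9 genes on each array (vertical axis, the same span of log2 units in every panel) by group (horizontal axis). Circles are replicate 1, triangles replicate 2 and bars the group mean. Slc2a2 sits at 11.17 and 12.43 in treated and 10.58 and 11.03 in untreated Irs2-/- islets, below all 4 wild-type arrays, while Kcnj11 keeps within 8.48 to 8.74 on all arrays.

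On plain water, 6 of the 9 genes fell in Irs2-/- islets and 0 rose, with a median difference of -1.50 over the 9 genes and -0.01 over all genes tested. Of all 13369 genes 8.52% were called lower and 8.27% higher in this comparison. The 6 were Trpm5, Slc2a2, Ucn3, Glp1r, Slc30a8 and Gipr. G6pc2 was lower on both arrays without passing the test, and the potassium channel pair Abcc8 and Kcnj11 differed by little more than 0.1. The comparison asks what loss of Irs2 does to islets of mice that drank no tungstate.

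Slc2a2 encodes GLUT2, the glucose transporter through which rodent beta cells take up glucose. Its level was 10.58 and 11.03 in untreated Irs2-/- islets, against 13.24 and 12.97 in untreated wild-type islets. The groups lay far apart without overlap, and Slc2a2 fell by 2.30 ± 0.36 (n = 2 arrays per group, limma adjusted p = 0.00817), which is 4.94-fold and the 12th lowest difference of all genes tested. G6pc2 encodes the islet glucose-6-phosphatase that works against glucokinase by turning glucose-6-phosphate back into glucose. It read 12.80 and 12.68 in untreated Irs2-/- islets, against 13.54 and 13.34 in untreated wild-type islets. These groups did not overlap either, but the difference of -0.70 ± 0.27 missed the threshold (limma adjusted p = 0.112). G6pc2 was called lower at the same difference where the spread was taken from the compared arrays alone (limma adjusted p = 0.0326) or without either treated Irs2-/- array (limma adjusted p = 0.0105).

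Abcc8 and Kcnj11 encode the sulfonylurea receptor and the pore of the ATP-sensitive potassium channel, and they are neighbours on mouse chromosome 7 in the RefSeq annotation. Abcc8 was 11.42 and 11.45 in untreated Irs2-/- islets, against 11.65 and 11.43 in untreated wild-type islets. Kcnj11 was 8.48 and 8.69 in untreated Irs2-/- islets, against 8.64 and 8.60 in untreated wild-type islets. For each gene the groups overlapped, and the 95% interval of the difference ran from -0.39 to 0.17 for Abcc8 and from -0.32 to 0.26 for Kcnj11. Those intervals leave out a 2-fold change of either gene, a size that the intervals of Slc2a2, Ucn3 and Trpm5 lie wholly beyond. The other probe set of Abcc8 differed by 0.05 ± 0.26 and that of Kcnj11 by -0.08 ± 0.16, with limma adjusted p = 0.922 and 0.799 over all probe sets.

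Trpm5 encodes a cation channel opened by calcium, known from taste cells and also active in beta cells. It read 7.28 and 7.71 in untreated Irs2-/- islets, against 10.10 and 10.03 in untreated wild-type islets. This was the largest difference of the 9 genes and the 5th lowest of all genes tested: Trpm5 fell by 2.58 ± 0.32 (limma adjusted p = 0.00338), or 5.96-fold. Its other 2 probe sets moved the same way, by -2.72 ± 0.46 and -1.53 ± 0.31 (limma adjusted p = 0.0139 and 0.0217 over all probe sets).

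Glp1r and Gipr encode the receptors of the incretin hormones glucagon-like peptide and glucose-dependent insulinotropic polypeptide. Glp1r was 5.44 and 5.38 in untreated Irs2-/- islets, against 6.63 and 7.76 in untreated wild-type islets. Both Irs2-/- arrays were close to 5.27, the level under which genes were left out of the tests, so the size of the difference, -1.78 ± 0.34 (limma adjusted p = 0.0136), is not exact. The wild-type arrays of Glp1r differed by 1.13, more than those of any other of the 9 genes. Gipr was 6.01 and 6.35 in untreated Irs2-/- islets, against 7.27 and 7.25 in untreated wild-type islets, and fell by 1.08 ± 0.19 (limma adjusted p = 0.0111). The Gipr groups were well separated, but the call was the least steady of the 6 (limma adjusted p of 0.0503 and 0.0555 without untreated wild-type replicate 1 and replicate 2, and 0.0581 without untreated Irs2-/- replicate 1, which also took Glp1r to 0.0575).

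Slc30a8 encodes the zinc transporter that loads insulin granules, where insulin is stored as zinc crystals. It read 11.05 and 11.23 in untreated Irs2-/- islets, against 12.72 and 12.55 in untreated wild-type islets, a difference of -1.50 ± 0.22 (limma adjusted p = 0.00651). Ucn3 encodes urocortin 3, a peptide that mature mouse beta cells release with insulin and that acts on somatostatin cells. Ucn3 was 9.43 and 10.03 in untreated Irs2-/- islets, against 11.82 and 11.78 in untreated wild-type islets. It fell by 2.07 ± 0.32 (limma adjusted p = 0.00743), or 4.21-fold, the 17th lowest difference.

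Arrays of untreated Irs2-/- and untreated wild-type islets did not overlap for 7 of the 9 genes, all 7 lower, and 31.7% of all genes tested were lower without overlap. Whole islets were measured, so fewer beta cells and less RNA per beta cell cannot be told apart. Other cells differed on the same arrays. All 11 tested macrophage markers rose (limma adjusted p under 0.05), with a list mean of 8.25 and 8.47 in untreated Irs2-/- islets, against 7.08 and 6.88 in untreated wild-type islets, and 3 of 9 lymphocyte, 4 of 6 duct, 2 of 8 fibroblast and stellate, and 1 of 9 endothelial markers rose. Of 3 delta cell markers 2 fell, with Sst, the somatostatin gene, at -1.35 ± 0.13 (limma adjusted p = 0.00181). Acinar markers averaged 11.45 and 12.26 in untreated Irs2-/- islets, against 9.15 and 11.91 in untreated wild-type islets, and 1 of 13 passed. The pan-endocrine mean was 12.58 and 12.52, against 12.61 and 12.51, with 2 of its 10 genes lower and 2 higher past the test. The 18S ribosomal RNA control probe sets averaged 11.05 and 10.63 in untreated Irs2-/- islets, against 11.75 and 12.70 in untreated wild-type islets, also without overlap. The part of the 18S level and of the lymphocyte, duct, fibroblast, endothelial and delta cell markers in the differences of the 9 genes was not tested. After centring each array on the pan-endocrine mean the same number of the 9 genes, 6, was called lower, as were 7.27% of all genes. The number was also 6 with the acinar level as a covariate, where 4.05% of all genes were called lower. With the macrophage level as a covariate it was 0, as was the count over all genes. The macrophage level itself separated the groups without overlap, so its part cannot be told apart from that of the genotype in this fit. Leaving out untreated replicate 1 of both genotypes left 1 array in each group compared. Slc2a2 was then -1.95, Ucn3 -1.76, Trpm5 -2.33, Slc30a8 -1.32 and Gipr -0.90. Fewer of the 9 genes, and fewer of all genes, were called in that fit than with all arrays.

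**Figure D2:**
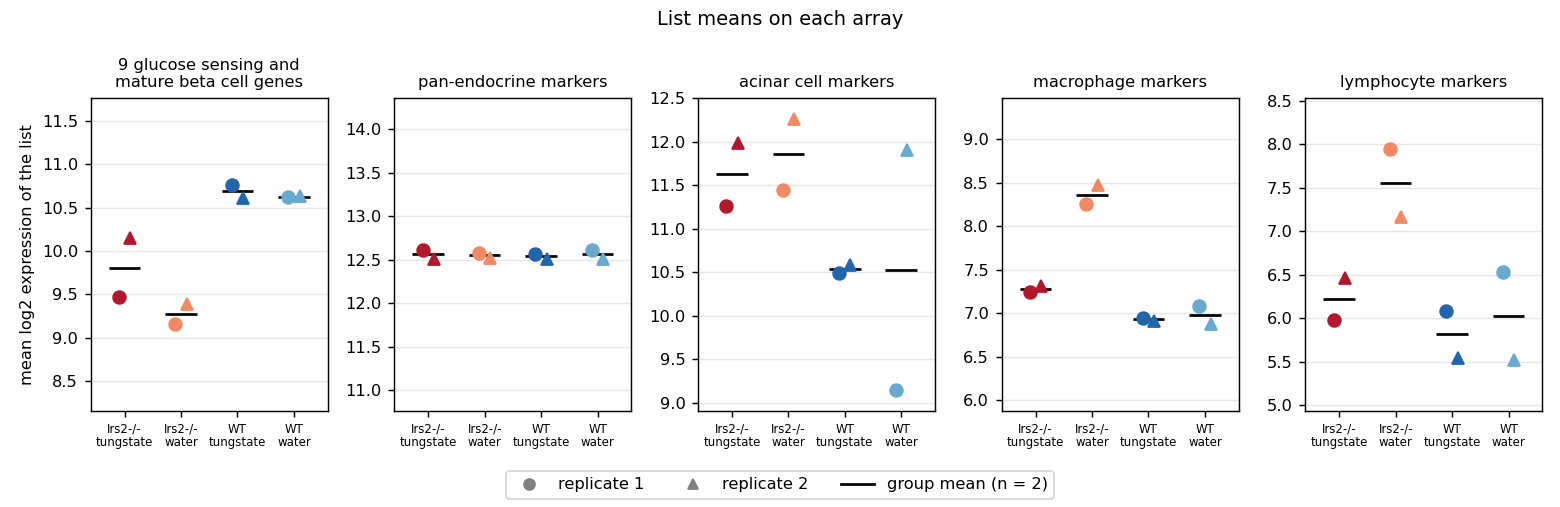
Mean log2 expression (vertical axis, the same span in each panel) of the 9 genes and of 4 marker lists on each array, by group. Circles are replicate 1, triangles replicate 2 and bars the group mean. The pan-endocrine mean keeps within 12.51 to 12.61, the macrophage mean is highest in untreated Irs2-/- islets (8.25 and 8.47), and the mean of the 9 genes is 9.47 and 10.15 in treated and 9.16 and 9.39 in untreated Irs2-/- islets.

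Over the 8 arrays, Slc2a2, Ucn3 and Trpm5 had the most similar profiles among the genes that fell. As a measure of likeness, each gene's deviations from its own mean were compared by their root mean square difference, in log2 units. It was 0.169 between Slc2a2 and Ucn3 and 0.187 between Trpm5 and Slc2a2, against 0.989 between Slc2a2 and Kcnj11. Glp1r stood farthest from its nearest partner, Ucn3, at 0.448. As a description, the RefSeq promoter windows of Slc2a2, Ucn3, Trpm5 and Glp1r are set side by side. Each is 300 bases long, from 250 before to 50 after the start (build GRCm38.p6, in the direction of transcription). Whether their letters bear on the profiles was not tested. Capitals mark TAAT on either strand (printed TAAT or ATTA), the core of sites for homeodomain factors such as Pdx1 and Nkx6-1, and CANNTG, the E-box of factors such as Neurod1. The windows are chr3:28697653-28697952 on the plus strand for Slc2a2, chr13:3945300-3945599 on the minus strand for Ucn3, chr7:143094593-143094892 on the minus strand for Trpm5 and chr17:30901617-30901916 on the plus strand for Glp1r.
Slc2a2: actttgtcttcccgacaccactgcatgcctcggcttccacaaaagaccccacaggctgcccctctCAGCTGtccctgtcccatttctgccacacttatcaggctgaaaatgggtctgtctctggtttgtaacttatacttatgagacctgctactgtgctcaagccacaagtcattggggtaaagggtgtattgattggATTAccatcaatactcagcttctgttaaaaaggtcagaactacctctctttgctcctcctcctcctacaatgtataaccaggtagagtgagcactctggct
Ucn3: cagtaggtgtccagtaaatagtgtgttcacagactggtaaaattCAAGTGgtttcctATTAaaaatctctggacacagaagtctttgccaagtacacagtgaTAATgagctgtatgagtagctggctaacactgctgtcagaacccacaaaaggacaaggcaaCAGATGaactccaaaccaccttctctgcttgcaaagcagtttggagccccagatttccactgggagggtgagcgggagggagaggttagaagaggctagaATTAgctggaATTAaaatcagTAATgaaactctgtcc
Trpm5: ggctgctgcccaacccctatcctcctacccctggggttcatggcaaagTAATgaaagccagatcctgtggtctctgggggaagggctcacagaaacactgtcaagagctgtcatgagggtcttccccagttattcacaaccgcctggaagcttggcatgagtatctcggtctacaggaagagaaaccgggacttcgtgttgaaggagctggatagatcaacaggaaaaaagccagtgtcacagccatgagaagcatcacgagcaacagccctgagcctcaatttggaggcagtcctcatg
Glp1r: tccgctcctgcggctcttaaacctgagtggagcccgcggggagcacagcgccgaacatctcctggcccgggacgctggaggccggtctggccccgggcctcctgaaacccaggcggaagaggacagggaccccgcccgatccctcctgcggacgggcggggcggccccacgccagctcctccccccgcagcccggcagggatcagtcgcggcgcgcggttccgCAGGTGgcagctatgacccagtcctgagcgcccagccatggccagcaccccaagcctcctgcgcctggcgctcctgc

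The Ucn3 window held 5 TAAT cores and 2 E-boxes, the Slc2a2 window 1 of each, the Trpm5 window 1 core and 0 E-boxes, and the Glp1r window 0 cores and 1 E-box. Over all 32851 windows of the table, 58% held TAAT and 72.3% CANNTG on either strand, so these short motifs are common. TGCTGA, part of the sites of Maf factors and found in 19.5% of all windows, was in none of the 4. Of the G6pc2 windows, which are not printed, the one starting at 69219699 held 2 matches and the other 0. GTTGCC, part of the sites of Rfx factors and found in 12.5%, was in the Ucn3 window, where it overlaps an E-box. The Glp1r window was 73.7% G and C, against 48% for Slc2a2, 44.7% for Ucn3, 53% for Trpm5 and a median of 52.7% over all windows. A match is a description of letters and not a bound site.

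Under tungstate, 8 of the 9 genes were lower on both Irs2-/- arrays than on both wild-type arrays, and 0 passed the test (6 had an unadjusted p under 0.05). Of all genes tested 25.7% were lower without overlap in this comparison, and 0.389% were called lower. By limma 16.1% of all genes had an unadjusted p under 0.05 in either direction. The question here is whether the genotypes differ while both drink tungstate. Slc2a2 was 11.17 and 12.43 in treated Irs2-/- islets, against 13.26 and 13.00 in treated wild-type islets (difference -1.33 ± 0.36, limma adjusted p = 0.119). Trpm5 was 8.07 and 9.13, against 10.45 and 10.12 (-1.68 ± 0.32, limma adjusted p = 0.0576), and Glp1r 5.77 and 6.07, against 7.63 and 7.12 (-1.45 ± 0.34, limma adjusted p = 0.088). These 3 differences were the largest of the 9, and for each gene the groups lay apart. Ucn3 (-1.18 ± 0.32), Gipr (-0.73 ± 0.19), Slc30a8 (-0.68 ± 0.22) and G6pc2 (-0.58 ± 0.27) were also lower without passing, and Abcc8 was -0.18 ± 0.12 and Kcnj11 -0.06 ± 0.13. The other Abcc8 probe set read 9.48 and 8.85, against 9.62 and 9.71 (-0.50 ± 0.26, limma adjusted p = 0.467 over all probe sets). That of Kcnj11 differed by -0.13 ± 0.16 (limma adjusted p = 0.809). Acinar markers averaged 11.26 and 11.99 in treated Irs2-/- islets, against 10.49 and 10.58 in treated wild-type islets, and macrophage markers 7.24 and 7.31, against 6.95 and 6.91. Fibroblast and stellate markers averaged 8.42 and 7.91 in treated Irs2-/- islets, against 6.12 and 6.39 in treated wild-type islets (list median 2.08), and 1 of 8 passed, the collagen gene Col3a1 (2.61 ± 0.42, limma adjusted p = 0.0398). In this comparison 137 of all 13369 genes were called in either direction, 52 of them lower. Of 9 endothelial markers 2 rose, and of 3 delta cell markers 1 fell. The part of these lists in the differences of the 9 genes was not tested. With the acinar level as a covariate 1 of the 9 genes was called lower (Glp1r, -1.85, limma adjusted p = 0.0128), against 0.344% of all genes. With the macrophage level 0 of the 9 were, as without a covariate, against 0.00748% of all genes. Both levels separated these groups without overlap, so their part cannot be told apart from that of the genotype in these fits.

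**Figure D3:**
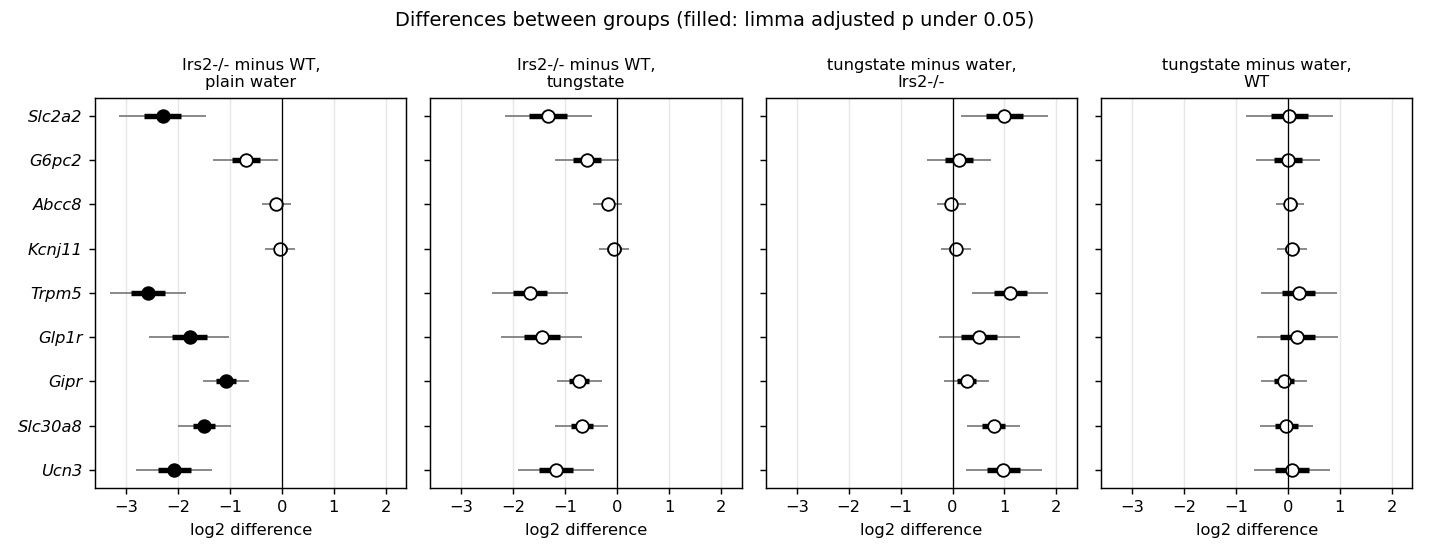
Log2 differences (horizontal axis) of the 9 genes (rows) in 4 comparisons. Points are the fitted difference, thick bars ± 1 SE and thin bars the 95% interval, and filled points passed at a limma adjusted p under 0.05. The 6 filled points are all in the comparison of genotypes on plain water, from -2.58 for Trpm5 to -1.08 for Gipr, and on tungstate in wild-type islets the 9 points lie between -0.08 and 0.21.

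Within Irs2-/- mice, treated minus untreated differences were above 0 for 8 of the 9 genes, with the highest values for Trpm5, Slc2a2, Ucn3 and Slc30a8, but 0 passed the test, against 0.0224% of all genes called higher. The median difference was 0.51 over the 9 genes and -0.01 over all genes, and 4 of the 9 had an unadjusted p under 0.05, against 13.3% of all genes. The arrays did not overlap for 5 genes, all higher with treatment, where 17.6% of all genes tested were higher without overlap. This comparison asks what the salt does to islets that lack Irs2. It shares the untreated Irs2-/- arrays with the comparison of genotypes on plain water, so a low value there raises the difference here. Other cells and the 18S level differed on these arrays: macrophage markers averaged 7.24 and 7.31 in treated, against 8.25 and 8.47 in untreated Irs2-/- islets. Lymphocyte markers averaged 5.98 and 6.46, against 7.95 and 7.17, and the 18S probe sets 11.92 and 11.12, against 11.05 and 10.63. With the macrophage level as a covariate 0 of the 9 genes were called, as without it, and 0 of all genes were. The macrophage level itself separated the treated from the untreated arrays without overlap. Its part therefore cannot be told apart from that of tungstate in this fit. The part of the lymphocyte markers and of 18S was not tested.

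Slc2a2 was 11.17 and 12.43 in treated, against 10.58 and 11.03 in untreated Irs2-/- islets. Treated replicate 1 lay just above the untreated arrays, and replicate 2 lay closer to the wild-type level, so the difference of 1.0 ± 0.36 rested on unlike arrays (limma adjusted p = 0.297). Ucn3 was 10.20 and 11.22 in treated, against 9.43 and 10.03 in untreated Irs2-/- islets (0.98 ± 0.32, limma adjusted p = 0.24). Trpm5 was 8.07 and 9.13, against 7.28 and 7.71 (1.11 ± 0.32, limma adjusted p = 0.195). Both genes showed the same order of the 4 arrays as Slc2a2. Slc30a8 was 11.56 and 12.29, against 11.05 and 11.23 (0.79 ± 0.22, limma adjusted p = 0.19). By size these 4 differences were the 4th (Trpm5), 9th (Slc2a2), 10th (Ucn3) and 26th (Slc30a8) highest of 13369, with unadjusted p from 0.00757 to 0.0256.

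**Figure D4:**
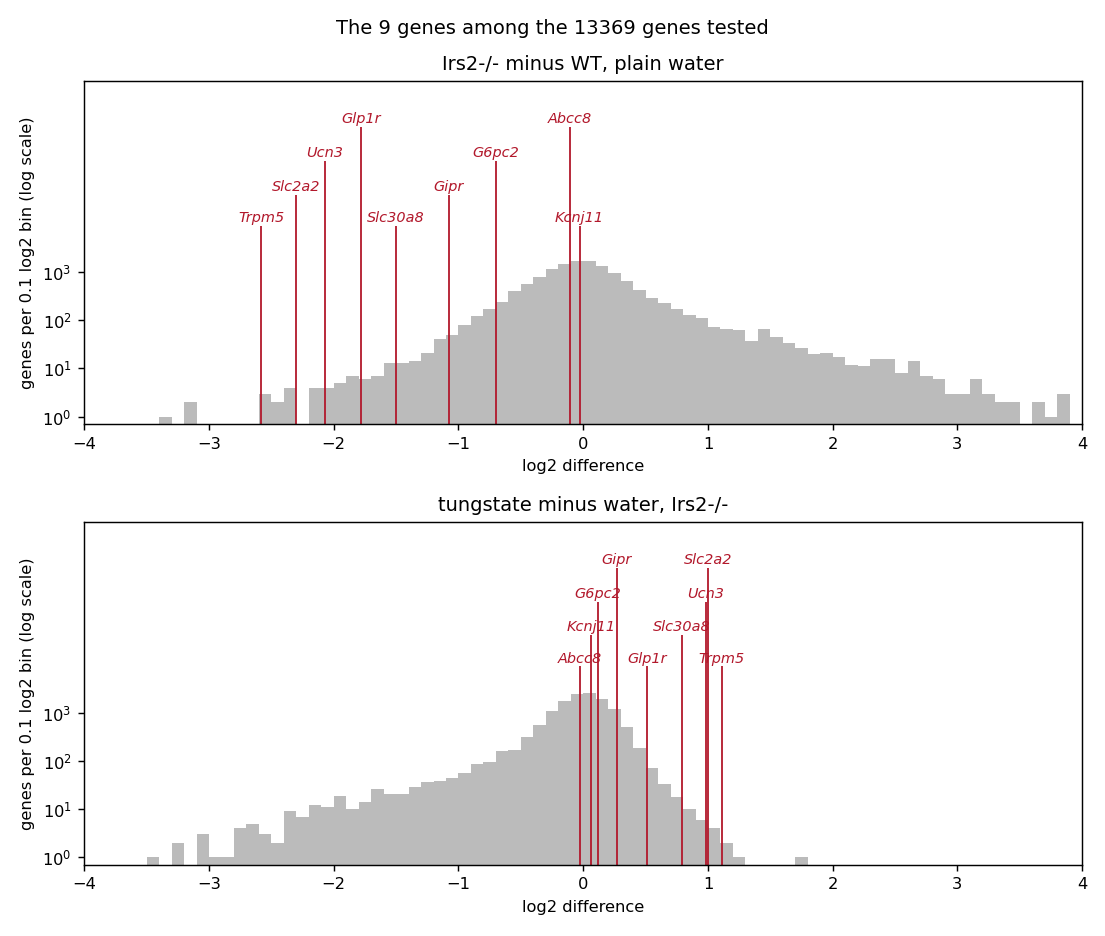
Number of genes (vertical axis, log scale) by log2 difference (horizontal axis, bins of 0.1) for the genotypes on plain water (upper panel) and for tungstate in Irs2-/- islets (lower panel), with red lines at the 9 genes and genes beyond 4 in either direction off the axis. Trpm5 (-2.58), Slc2a2 (-2.30) and Ucn3 (-2.07) lie in the left tail of the upper panel and, at 1.11, 1.0 and 0.98, in the right tail of the lower panel, while Abcc8 and Kcnj11 lie near 0 in both.

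The incretin receptors had smaller differences with treatment. Glp1r was 5.77 and 6.07 in treated, against 5.44 and 5.38 in untreated Irs2-/- islets, without overlap (0.51 ± 0.34, limma adjusted p = 0.552). Gipr was 6.21 and 6.69, against 6.01 and 6.35, with overlap (0.27 ± 0.19, limma adjusted p = 0.575). G6pc2 had 12.39 and 13.34 in treated, against 12.80 and 12.68 in untreated Irs2-/- islets: treated replicate 1 was the lowest of the 8 arrays and replicate 2 was at the level of untreated wild-type replicate 2 (13.34). Its difference was 0.12 ± 0.27. Abcc8 differed by -0.03 ± 0.12 (0.04 under quantile normalization) and Kcnj11 by 0.06 ± 0.13.

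The treated Irs2-/- arrays were unlike each other in these genes. All 9 genes were higher on replicate 2 than on replicate 1, by 0.10 (Abcc8) to 1.26 (Slc2a2), with a median of 0.73. Over all genes tested 48.7% were higher on replicate 2 (median -0.01), and of the 1139 genes called lower in untreated Irs2-/- islets 68.5% were. Within the other groups the median gap of the 9 genes between replicates was 0.21 in untreated Irs2-/-, -0.14 in treated wild-type and -0.07 in untreated wild-type islets. The pan-endocrine mean was 12.61 and 12.51 on treated Irs2-/- replicates 1 and 2, the acinar mean 11.26 and 11.99 and the macrophage mean 7.24 and 7.31. In the same order the 18S probe sets averaged 11.92 and 11.12, and lymphocyte markers 5.98 and 6.46. Duct markers averaged 8.85 and 8.40, endothelial markers 8.62 and 8.17, and fibroblast and stellate markers 8.42 and 7.91. The part of these markers and of 18S in the gap between the arrays was not tested.

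Each treated Irs2-/- array can be placed between the untreated groups, with untreated Irs2-/- at 0% and untreated wild type at 100% on the log2 scale. For Slc2a2 replicate 1 stood at 16% and replicate 2 at 70.6%. For Ucn3 they stood at 22.8% and 72%, for Trpm5 at 22.5% and 63.6%, and for Slc30a8 at 28.2% and 76.9%. So for these 4 genes replicate 2 lay nearer to the wild-type mean and replicate 1 nearer to the untreated Irs2-/- mean. The incretin receptors stood lower on replicate 2, at 37.1% for Glp1r (20.4% on replicate 1) and 47.8% for Gipr (3.1%). The median over the 1139 genes was 23.6% and 41.5%. These positions use the same arrays that chose the 6 genes as called and are a description.

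**Figure D5:**
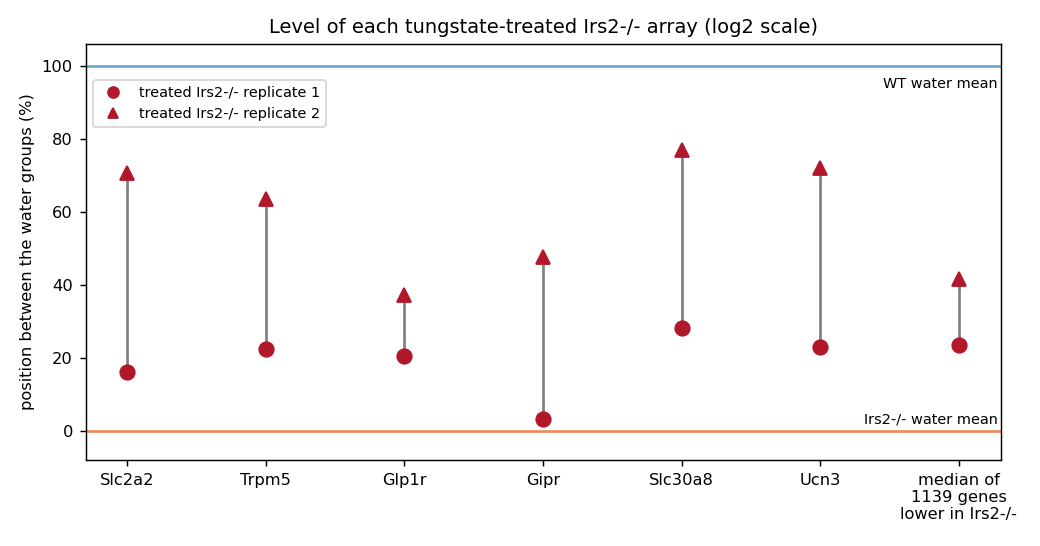
Position of each treated Irs2-/- array (vertical axis, percent of the log2 distance) between the means of untreated Irs2-/- islets (0%) and untreated wild-type islets (100%), for the 6 genes called lower without Irs2 and for the median of all 1139 such genes. Circles are replicate 1 and triangles replicate 2. Replicate 2 is above replicate 1 in every column, at 76.9% against 28.2% for Slc30a8 and 41.5% against 23.6% for the median.

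Which treated array was used decided the calls. Without treated Irs2-/- replicate 1, 4 of the 9 genes rose with tungstate: Trpm5 (1.64), Slc2a2 (1.63), Ucn3 (1.49) and Slc30a8 (1.15), with limma adjusted p from 0.0284 to 0.0433. In that fit 0.254% of all genes were called higher. Without replicate 2 Trpm5 was at 0.58, Slc2a2 at 0.37, Ucn3 at 0.47 and Slc30a8 at 0.42, and G6pc2 at -0.36, against 0.12 on both arrays. Fewer of the 9 genes, and fewer of all genes, were called higher in that fit than without replicate 1. In the comparison of the genotypes under tungstate the order was the other way: without replicate 2, 6 of the 9 genes were called lower (Slc2a2, Ucn3, Trpm5, Slc30a8, Gipr and G6pc2, from -2.21 for Trpm5 to -0.97 for Gipr), and without replicate 1 it was 0. Calls changed over all genes as well: 1.91% were called lower without replicate 2 and 0.0224% without replicate 1, against 0.389% with both. In these fits the group with a single array is assumed to vary like the other groups.

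In wild-type mice the 9 genes differed little with tungstate. Differences of treated minus untreated wild-type islets ran from -0.08 (Gipr) to 0.21 (Trpm5), with a median of 0.05, and 0 passed limma's test, as did 0% of all genes; 0 of the 9 had an unadjusted p under 0.05, against 2.72% of all genes. The arrays did not overlap for 2 genes, Trpm5 and Kcnj11, both higher with treatment, where 15.2% of all genes were higher without overlap. Slc2a2 was 13.26 and 13.00 in treated, against 13.24 and 12.97 in untreated wild-type islets (0.03 ± 0.36). The 95% interval of Slc2a2, not adjusted for the number of genes, ran from -0.81 to 0.87, so a change within that range is not excluded. Its width comes from the spread pooled over the 4 groups. The standard deviation of Slc2a2 was 0.18 in each wild-type group and 0.89 in treated Irs2-/- islets. Fibroblast and stellate markers averaged 6.12 and 6.39 in treated, against 8.41 and 7.01 in untreated wild-type islets (list median -1.52), with 0 of 8 past limma's adjusted test (Col3a1 -1.94 and Dcn -2.62, unadjusted p = 0.00175 and 0.00864 by limma), and their part in the values of the 9 genes was not tested. For Abcc8 the interval was -0.23 to 0.32 and for Kcnj11 -0.21 to 0.37. The other Abcc8 probe set read 9.62 and 9.71, against 9.31 and 9.11 (0.46 ± 0.26, limma adjusted p = 0.998 over all probe sets), against 0.05 ± 0.12 for the probe set used.

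Whether tungstate acted differently in the genotypes was tested as an interaction, and 0 of the 9 genes passed (0.0224% of all genes were called). The fitted difference between the effects was 0.97 ± 0.51 for Slc2a2, 0.90 ± 0.45 for Ucn3, 0.90 ± 0.45 for Trpm5 and 0.81 ± 0.31 for Slc30a8, with limma adjusted p between 0.731 and 0.816. Slc30a8 was the 1 gene of the 9 with an unadjusted p under 0.05 (0.0316 by limma), as 6.45% of all genes had. Against untreated wild-type islets, treated Irs2-/- islets were lower without overlap for 6 of the 9 genes (30.2% of all genes), and 0 were called (0.157% of all genes were called lower). The differences were -1.47 ± 0.32 for Trpm5, -1.31 ± 0.36 for Slc2a2, -1.27 ± 0.34 for Glp1r, -1.09 ± 0.32 for Ucn3, -0.81 ± 0.19 for Gipr and -0.71 ± 0.22 for Slc30a8, with limma adjusted p from 0.0891 to 0.154. This comparison shares its arrays with those above. Without treated Irs2-/- replicate 2, 6 of the 9 were called lower in it, as were 2.31% of all genes.

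Other genes of the same pathway were read from 5 lists. For the genotypes on plain water 8.52% of all genes were called lower and 8.27% higher. Of 13 tested transcription factors of beta cells, 6 fell in untreated Irs2-/- islets and 0 rose, with a list median of -0.32. They included Nkx6-1 (-1.21 ± 0.19), which keeps beta cells distinct from other endocrine cells, Neurod1 (-0.87 ± 0.15), an activator of the insulin gene, and Foxa2 (-0.73 ± 0.13), which opens chromatin at islet genes. Of 14 tested channels and ion carriers 2 fell and 1 rose (median -0.26): the L-type calcium channel genes Cacna1d (-0.60 ± 0.12) and Cacna1c (-0.88 ± 0.19) fell, and the chloride carrier gene Slc12a2 rose (0.74 ± 0.12). The limma adjusted p of these named genes was between 0.00823 and 0.0202.

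In the list of glucose metabolism 2 of 11 tested genes fell and 4 rose in untreated Irs2-/- islets (median 0.48). Pcx, the pyruvate carboxylase that refills the citric acid cycle, fell by 1.75 ± 0.14 (limma adjusted p = 0.00103), and Gpd2, of the glycerol phosphate shuttle, fell by 0.95 ± 0.15 (limma adjusted p = 0.00787). The genes that rose were Hk2, a hexokinase kept low in healthy beta cells (0.73 ± 0.11), the lactate dehydrogenase gene Ldha (1.84 ± 0.40), the glucose transporter gene Slc2a3 (0.89 ± 0.20) and the malate dehydrogenase gene Mdh1 (0.48 ± 0.12). Under tungstate Pcx (-1.10 ± 0.14, limma adjusted p = 0.0254) and Gpd2 (-0.84 ± 0.15, limma adjusted p = 0.0472) were still called lower in Irs2-/- than in wild-type islets. Of the granule and insulin-making list 2 of 15 fell, the granule docking gene Sytl4 (-2.03 ± 0.31) and Ero1b (-0.82 ± 0.15), which forms disulfide bonds in proinsulin, and 2 rose, the granule membrane gene Ptprn (1.14 ± 0.20) and the prohormone convertase gene Pcsk1 (0.59 ± 0.14), with a list median of -0.01. Of 11 tested receptors and cAMP genes 1 fell, Creb1 (-0.50 ± 0.14, limma adjusted p = 0.042), with a median of -0.19. In the same comparison 16.8% of all genes were called in either direction, 8.52% lower and 8.27% higher. The counts of the channel list and of the receptor and cAMP list were not far from these shares.

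With tungstate in Irs2-/- islets 0 members of these 5 lists passed limma's test, against 0.494% of all genes called in either direction. The smallest p belonged to Pcx (0.86 ± 0.14) and Hk2 (-0.65 ± 0.11), each with a limma adjusted p of 0.0621, and Nkx6-1 was 0.44 ± 0.19 (limma adjusted p = 0.38). On the same arrays 6 of 11 tested macrophage markers fell (0.471% of all genes did), such as Aif1 (-1.66 ± 0.15, limma adjusted p = 0.0063).

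The genes with profiles most like the 9 were found by the same root mean square difference over the 8 arrays. Nearest to Slc2a2 were Olfm4 (0.11), Fam151a (0.13) and Sytl4 (0.146), where Slc2a2 itself deviated from its mean by 1.035. Sytl4 (0.142) and Olfm4 (0.173) were nearest to Ucn3, T2 (0.141) and Olfm4 (0.224) to Trpm5, and Dennd4c (0.088) and Ppp1r1a (0.097) to Slc30a8. Glp1r had no gene closer than Ly6h (0.247). For the mean of the 9 genes the nearest were Vdr (0.088), Nkx6-1 (0.09), Dennd4c (0.092), Ppp1r1a (0.099) and Hs3st6 (0.108), where the mean itself deviated by 0.616.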

How the data were processed

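Values were deposited as log2 signals of probe sets, which the authors made with RMA in the affy package (R 2.7.0), per the submitters' processing notes. RMA scales arrays to each other, so a shift of most genes would not be seen. All 8 columns were used, with a group per array from the labels. Controls aside there were 45037 probe sets. The platform annotation gives 34945 of them 1 gene symbol, 932 several and 9160 none. A gene was represented by its probe set of highest mean level. Genes with a mean under the 40th percentile of probe sets (log2 5.27) were left out, which left 13369. A mean per group was fitted with limma 3.58.1 (R 4.3.3) on 4 residual and 3.89 prior degrees of freedom, with empirical Bayes moderation and Benjamini-Hochberg adjustment over the genes of each of 6 contrasts. The fit was tested on simulated data. Sequences come from RefSeq (GRCm38.p6), where 5 of the 9 genes have a promoter window.

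The 9 genes, the gene lists and the tests were chosen with earlier results of these data known. Named were all 9 genes and Irs2, the 3 genes of each pathway list with the smallest p for the genotypes on plain water and the 2 for tungstate in Irs2-/- islets, the 3 nearest genes by profile (5 for the mean), and marker genes as examples. Not every gene so named is printed, and Ldha, Slc2a3, Mdh1 and Pcsk1 were added after their values were seen. Alternatives covered filters, variance models, scaling, probe sets, marker covariates, a replicate block, thresholds and left-out arrays. Raw array files and scan dates were not used here.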

Additional observations from a re-analysis of the deposited data

How the results depend on the processing

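The 9 genes were recomputed under 24 alternatives for each comparison (23 for the interaction). Of 1287 values 1242 stayed on their side of the threshold, 14 lost a call, 30 gained one, and 1 lost its call and reversed its sign. That 1 was Glp1r for the genotypes on plain water, at 1.14 with the macrophage level as a covariate. Counted by sign alone, 45 values changed, and only this Glp1r value among them had been called. In that comparison 6 genes were called lower, against 0 with the macrophage level as a covariate, where 0 of all genes were called. The count was 7 with only the arrays compared (G6pc2 added), where 5.68% of all genes were called lower. With each array left out in turn, Trpm5 ran from -2.79 to -2.36, Slc2a2 from -2.53 to -2.08, Glp1r from -2.35 to -1.22 and Gipr from -1.25 to -0.91. The calls of Gipr and Glp1r did not hold in every such fit, as given above. For the genotypes under tungstate 0 were called lower, against 2 at an adjusted p under 0.1. The count was 1 each with a filter at the 60th percentile, with only the arrays compared and with array weights. It was also 1 with the acinar level as a covariate (0.344% of all genes). With each array left out in turn, Slc2a2 ran from -1.96 to -0.71 and Trpm5 from -2.21 to -1.15, and the calls changed with the array left out. For tungstate in Irs2-/- islets 0 were called higher, against 0 to 4 when each array was left out. For treated Irs2-/- against untreated wild-type islets 0 were called lower, against 2 at an adjusted p under 0.1. With each array left out in turn, Slc2a2 ran from -1.94 to -0.68 and Trpm5 from -2 to -0.94, and the calls changed here as well. At an adjusted p under 0.1 the share of all genes called lower was 1.59% for the genotypes under tungstate. It was 2.3% for treated Irs2-/- against untreated wild-type islets. For the genotypes under tungstate it was 0.625% with the filter at the 60th percentile, 0.194% with only the arrays compared and 0.471% with array weights. The cause of the changed counts, which rose in some fits and fell in others, was not tested. Fits without an array or with covariates hold fewer degrees of freedom, and leaving out an array also changes the spread pooled over the groups. Over all genes the limma counts were 2245 (0 to 3511), 137 (1 to 679), 66 (0 to 265), 0 (0 to 9), 47 (2 to 585) and 3 (0 to 13) for the genotypes untreated and treated, tungstate in Irs2-/- and in wild-type islets, treated Irs2-/- against untreated wild type, and the interaction.

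Replicate numbers 1 and 2 occur in every group, and the deviations of same-numbered arrays correlated between -0.07 and 0.42 across genes over the 6 pairs of groups, with the 0.42 between untreated Irs2-/- and untreated wild-type arrays. Not every pair of groups was above 0.1, and no label ties the numbers to a shared batch, so the numbers were not taken as pairs. With the replicate number as a block, 6 of the 9 genes were called lower for the genotypes on plain water and 0 in either direction in the other comparisons, as without the block, and 2435 genes were called in place of 2245. Levels near 5.27, as for Glp1r in Irs2-/- islets, and near the top of the scale, as for Ins2, limit what a difference can show.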
